A study of Mus musculus with 21 samples.

Results

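T cell and NK cell genes were followed in the right lung of the mouse at 5 times after left pneumonectomy, the surgical removal of the left lung. The set was a list of 43 gene symbols that mark T lymphocytes and natural killer (NK) cells, and 41 of them were measured among 19938 genes. Each of the 41 was read by 1 probe set, while Lck and Tcf7 were not analysed here. The genes were taken by symbol from the list, and the rule would take the brightest probe set of a gene with several.

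RNA was taken from male C57BL/6 mice at days 3, 7, 14, 28 and 56 after left pneumonectomy, at day 56 after sham surgery, and at day 0, where no surgery had been done. Each of these 7 conditions had 3 arrays, namely the medial lobe, the cardiac lobe and the whole right lung, and values are given in that order throughout. No transgene or drug is named in the labels, and the strain and sex were shared by all 21 arrays. Whether the same animals, or pools of them, gave the 3 regions of a condition is not stated in the labels, so p-values measure only how far a difference varied between regions, which may be partly technical.

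T cells recognise antigen through a receptor whose CD3 chains carry the signal into the cell, with CD4 or CD8 as coreceptor. NK cells and cytotoxic T cells share a killing machinery of granzymes and perforin, and NK cells read target cells through activating and inhibitory receptors. In the lung these lymphocytes lie in the vessels, the tissue and the airways, and some stay there as resident cells. In RNA of whole tissue, fewer lymphocytes and less RNA per lymphocyte cannot be told apart.

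Values are log2 intensities, on which a negative difference is a lower level, and since probe sets differ in how strongly they bind, a level does not rank genes by their amount of RNA. A gene was called, and is said to have risen or fallen, when the Benjamini-Hochberg adjusted p of limma, taken over all 19938 genes of a comparison, was under 0.05. The value after ± is the standard error (SE) of a difference as fitted. The members averaged between 4.05 (Trat1) and 8.83 (Cd2) over the 21 arrays, and 10 of the 41 lay above the median gene of the arrays at 6.98. The 3 defining chains Cd3e, Cd3g and Cd3d averaged 7.75, 6.77 and 6.11, at percentiles 61.7, 47.2 and 39.5 of all genes. The NK receptor gene Ncr1 averaged 6.55, at percentile 44.6. The lowest single value of the table was 2.98, which is not a limit of detection, and the file holds no detection call.

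The members were highest at day 0 and lower in every later condition, sham surgery included. Their mean level was 6.21, 6.38 and 6.16 at day 3, 6.13, 6.17 and 6.19 at day 7, 6.21, 6.35 and 6.21 at day 14, 6.66, 6.45 and 6.31 at day 28 and 6.28, 6.19 and 6.35 at day 56 after pneumonectomy. It was 6.22, 6.41 and 6.26 after sham surgery and 6.66, 6.93 and 6.66 at day 0. The day 0 arrays stood above all later arrays of the same region except the day 28 medial lobe, which had the same mean level to 2 decimals.

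Day 0 was the highest of the 7 condition means for 37 of 41 members, against 18.8% of all genes, and the other 4 were Thy1, Bcl11b, Gata3 and Klrd1. Day 0 was the highest of the 7 arrays for 20 members in the medial lobe (17.9% of all genes), 33 in the cardiac lobe (12.9%) and 27 in the whole lung (16.7%). Day 7 was the lowest condition mean for 19 members, against 19.9% of all genes, and day 0 was the lowest for none of the 41, against 24.4% of all genes. A moderated F test over the 7 conditions (limma) called 15 members, 36.6% of them, against 7.76% of all genes.

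**Figure D1:**
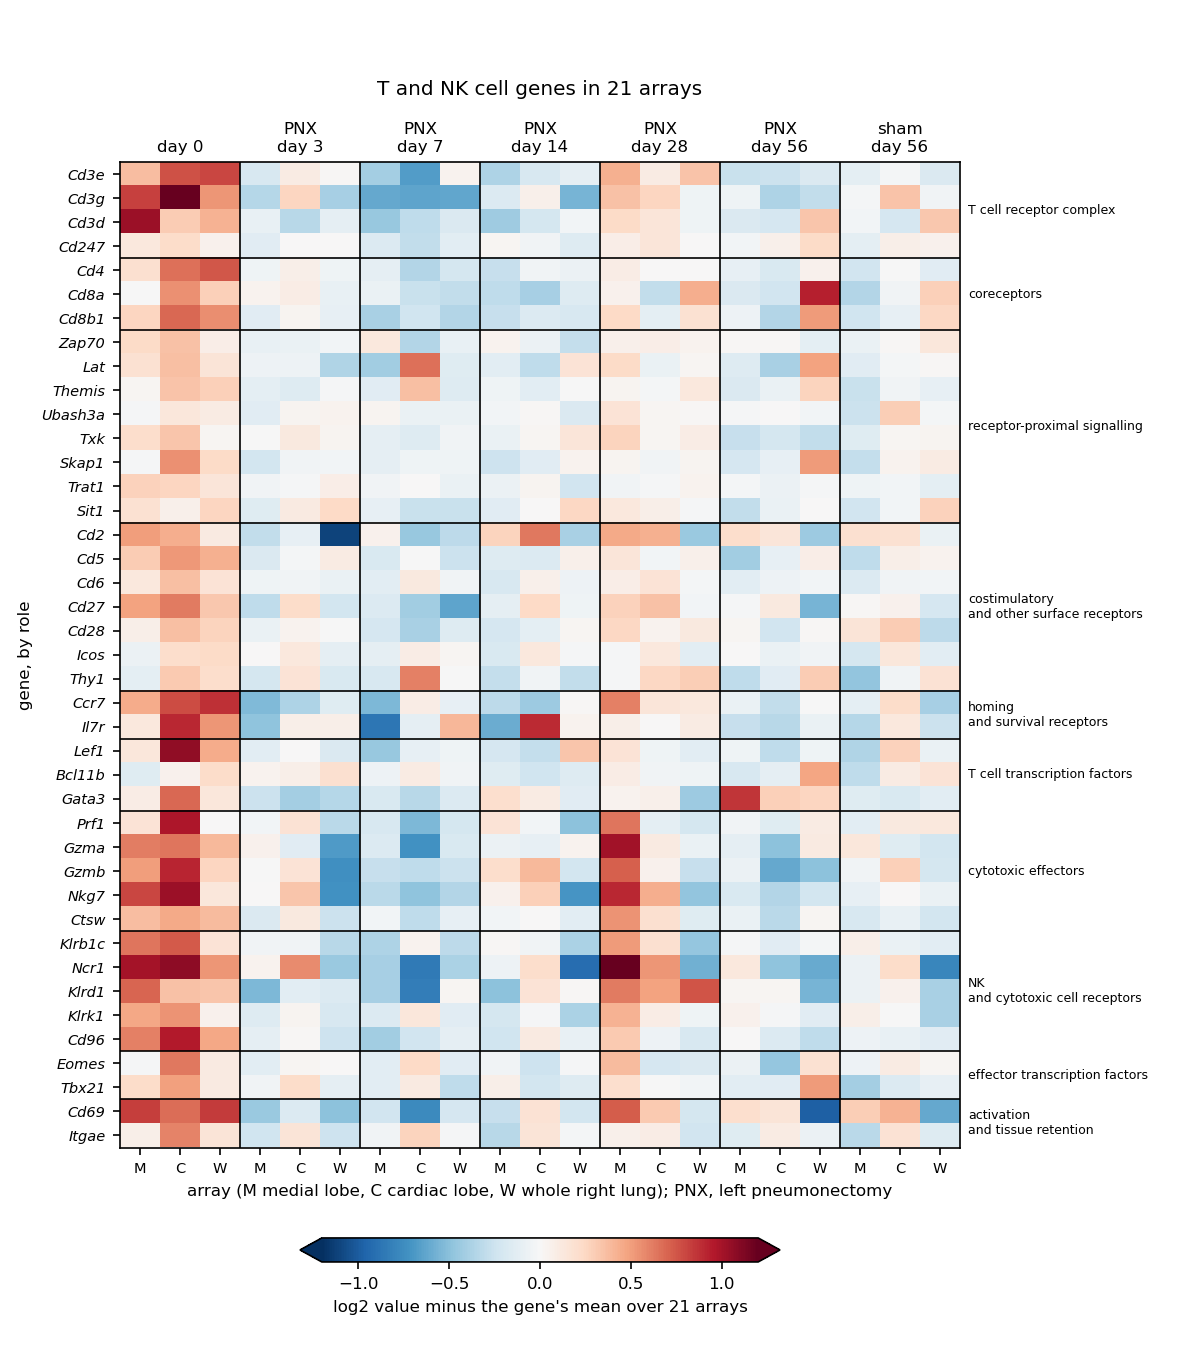
Log2 value of each of the 41 T and NK cell genes (rows, by role) in each of the 21 arrays (columns, by condition and region), minus the mean of the gene over the 21 arrays. Red cells are above the mean of the gene. The 3 columns of day 0 and the day 28 medial lobe are mostly red, among T cell genes as well as cytotoxic and NK genes. The columns of day 7 and of sham surgery are mostly blue or pale.

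At day 3 after pneumonectomy 19 of 41 members fell relative to day 0 (46.3%), against 2.73% of all genes that fell, and none rose. The median difference of the members was -0.45, with 40 of 41 below 0. At day 7, 24 members fell (58.5%), against 4.97% of all genes, with a median of -0.55 and all 41 below 0. At day 14, 10 members fell, against 0.707% of all genes, with a median of -0.43, and 2 to 6 members passed without any 1 of the 6 arrays. These comparisons share the day 0 arrays, which stood high in the members.

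The counts depended on single arrays and on the model. For day 3 the count was 7 without the day 0 cardiac lobe or the day 3 whole lung and 10 to 12 without any other of the 6 arrays compared, 5 in the lobes alone and 6 without a region term. For day 7 it was 10 without the cardiac lobe of day 0 or of day 7 and 11 without the day 0 whole lung, and when only the 6 arrays compared were fitted 0 members passed (limma), with 32 lower at an unadjusted p under 0.05.

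The sham lungs gave a different baseline from day 0, in which surgery and anything else of the collection cannot be told apart. In day 56 sham lungs 4 of 41 members fell relative to day 0 (Cd3e, Cd3g, Cd4 and Cd96), against 0.206% of all genes, with all 41 below 0 and a median of -0.46. Relative to the sham lungs, day 3 had 1 member that fell, Cd2, against 3.21% of all genes, with a median of -0.04 over the members. Day 7 had 1 that fell, Cd3g, against 2.15% of all genes, with a median of -0.12 and 30 of 41 below 0. These 2 counts, each 2.44% of the members, were near the share among all genes. The sham count was 1 or 2 without any other of its arrays and 0 without the medial lobe of sham, the cardiac lobe of sham or the cardiac lobe of day 0, with 19 to 30 members lower at an unadjusted p under 0.05 (limma).

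**Figure D2:**
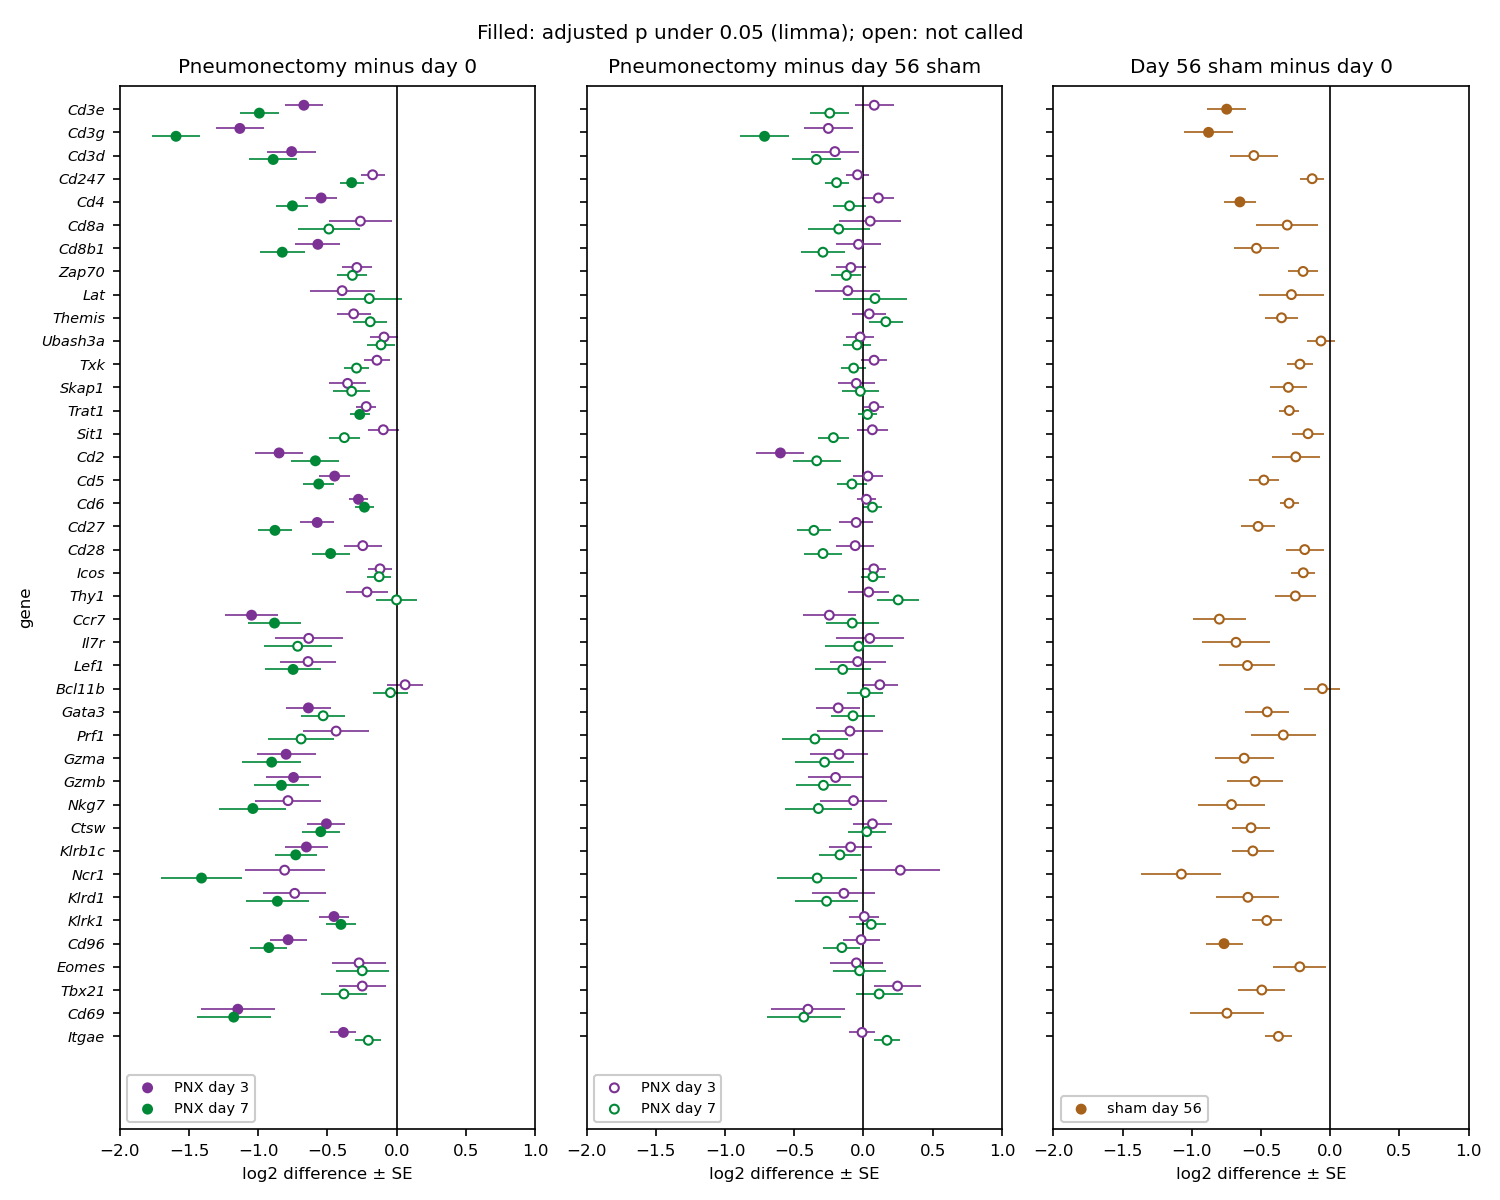
Fitted log2 difference of each of the 41 members (rows) with its standard error, for days 3 and 7 after pneumonectomy minus day 0 (left), the same days minus day 56 sham (middle), and day 56 sham minus day 0 (right). Filled points passed an adjusted p under 0.05 in limma: 19 and 24 on the left, 1 and 1 in the middle, and 4 on the right, where all 41 points lie below 0.

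Cd3g, of the T cell receptor complex, had the largest difference from day 0 of all 41 members at day 7. Cd3e, Cd3g and Cd3d encode the CD3 chains, and Cd247 encodes the zeta chain that carries most of the signalling motifs. Of these 4 genes 3 fell at day 3 and all 4 at day 7, while 1 fell at day 7 relative to sham. Cd3g was 6.43, 7.03 and 6.37 at day 3 and 6.16, 6.14 and 6.14 at day 7, against 6.75, 7.11 and 6.73 in sham lungs and 7.59, 8.33 and 7.30 at day 0. The 3 day 7 arrays were the lowest of the 12, nearly equal, and did not overlap with sham or day 0. Relative to day 0 the difference was -1.13 ± 0.17 at day 3 (2.19-fold lower, adjusted p = 0.000987) and -1.59 ± 0.17 at day 7 (3.02-fold lower, adjusted p = 0.00039). Relative to sham it was -0.71 ± 0.17 at day 7 (1.64-fold lower, adjusted p = 0.0295) and -0.25 ± 0.17 at day 3 (adjusted p = 0.554). The fall at day 7 relative to sham was kept in 3 of 12 alternatives, with adjusted p between 0.02 and 0.15, and of the 6 arrays compared only the day 7 whole lung could be left out without losing it.

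Cd3g later stood at 6.61, 6.83 and 6.21 at day 14, 7.13, 7.03 and 6.72 at day 28 and 6.72, 6.40 and 6.47 at day 56 after pneumonectomy. All of these arrays were below the lowest day 0 array at 7.30. At day 56 the difference from day 0 was -1.21 ± 0.17 (adjusted p = 0.024), and from sham it was -0.33 ± 0.17 with a 95% interval of -0.70 to 0.04.

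Cd3e was 7.56, 7.84 and 7.76 at day 3 and 7.33, 7.08 and 7.79 at day 7, against 7.63, 7.72 and 7.57 in sham lungs and 8.12, 8.51 and 8.55 at day 0. The sham arrays lay within the range of day 3 and day 7, and all of them lay below day 0. It fell by 0.67 at day 3 (SE 0.14, adjusted p = 0.00772) and by 0.99 at day 7 (adjusted p = 0.00108), and sham fell by 0.75 (adjusted p = 0.0286), all relative to day 0. Cd3d was 6.02, 5.78 and 6.00 at day 3 and 5.65, 5.81 and 5.94 at day 7, against 6.08, 5.91 and 6.43 in sham lungs and 7.14, 6.42 and 6.52 at day 0. Its day 0 medial lobe was the highest of all arrays, and the whole lung after sham overlapped with day 0. Cd3d fell at days 3 and 7 relative to day 0 (differences -0.76 ± 0.17 and -0.89 ± 0.17, adjusted p = 0.0149 and 0.00799). Cd247 moved less, with a difference of -0.33 ± 0.09 at day 7 relative to day 0 (adjusted p = 0.0312) and -0.17 ± 0.09 at day 3 (adjusted p = 0.287).

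The CD3 genes lie together on mouse chromosome 9, and their promoter windows are shown because they define T cells and 1 of them, Cd3g, had the largest difference from day 0 at day 7. Each window runs from 250 bases before to 50 bases after the annotated start of a gene, written 5′ to 3′ on the strand of the gene, from RefSeq on GRCm38.p6. Capitals mark 3 short motifs searched on both strands: the core bound by ETS factors, AGGAAG, which reads as CTTCCT on the other strand, the core bound by RUNX factors, TGTGGT, which reads there as ACCACA, and the core bound by TCF and LEF factors, CTTTGA, which reads there as TCAAAG. Cd3g (chr9:44980382-44980681, minus strand) and Cd3d (chr9:44981536-44981835, plus strand) point away from each other with 854 bases between their windows, and Cd3e (chr9:45009562-45009861, minus strand) lies beside them.
Cd3g: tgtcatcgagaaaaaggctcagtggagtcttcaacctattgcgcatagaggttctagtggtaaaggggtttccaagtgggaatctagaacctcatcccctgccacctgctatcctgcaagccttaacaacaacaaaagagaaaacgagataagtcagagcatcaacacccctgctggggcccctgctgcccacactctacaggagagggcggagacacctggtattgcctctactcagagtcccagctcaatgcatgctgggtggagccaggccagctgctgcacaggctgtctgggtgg
Cd3d: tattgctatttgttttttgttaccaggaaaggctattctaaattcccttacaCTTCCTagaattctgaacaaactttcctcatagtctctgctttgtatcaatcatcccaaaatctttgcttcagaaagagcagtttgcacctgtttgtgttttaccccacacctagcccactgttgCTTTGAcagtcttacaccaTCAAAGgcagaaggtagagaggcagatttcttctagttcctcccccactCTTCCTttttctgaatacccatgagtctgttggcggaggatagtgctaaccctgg
Cd3e: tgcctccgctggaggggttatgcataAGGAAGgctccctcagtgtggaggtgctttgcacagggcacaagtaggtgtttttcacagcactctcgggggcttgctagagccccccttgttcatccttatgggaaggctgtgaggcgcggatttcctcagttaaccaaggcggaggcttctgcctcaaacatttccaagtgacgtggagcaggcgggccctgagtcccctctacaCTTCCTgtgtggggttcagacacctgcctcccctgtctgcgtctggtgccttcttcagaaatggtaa
The Cd3d window holds 2 matches of the ETS core and 2 of the TCF and LEF core, the Cd3e window holds 2 of the ETS core, and the Cd3g window holds none of the 3 motifs. None of the motifs overlaps another in these windows. Windows were found for 28 of the 41 members, with 36 windows in all because some genes have several starts. The ETS core was in 16 of these windows (44.4%), against 35.4% of all 32851 windows, the RUNX core in 14 (38.9%), against 16.8%, and the TCF and LEF core in 10 (27.8%), against 16.0%. A match is only these letters in a window and does not show a bound site.

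Of the coreceptor genes, Cd4 and Cd8b1 fell at days 3 and 7 relative to day 0 and Cd8a did not pass. Cd4, which marks helper and regulatory T cells, was 5.88, 6.00 and 5.88 at day 3 and 5.83, 5.58 and 5.73 at day 7, against 5.71, 5.93 and 5.80 in sham lungs and 6.12, 6.60 and 6.68 at day 0. All sham and pneumonectomy arrays shown lay below the lowest day 0 array, the medial lobe. The differences from day 0 were -0.55 ± 0.12 at day 3 (adjusted p = 0.009), -0.75 ± 0.12 at day 7 (adjusted p = 0.00185) and -0.65 ± 0.12 in sham (adjusted p = 0.022). Relative to sham, Cd4 differed by 0.11 ± 0.12 at day 3 and by -0.10 ± 0.12 at day 7, neither of which passed.

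Cd8b1, the beta chain of CD8 on cytotoxic T cells, was 7.20, 7.38 and 7.24 at day 3 and 6.95, 7.10 and 6.99 at day 7, against 7.10, 7.25 and 7.58 in sham lungs and 7.60, 8.03 and 7.90 at day 0. The groups at days 3 and 7 did not overlap with day 0, and the whole lung after sham came within 0.05 of the lowest day 0 array. It fell by 0.83 at day 7 relative to day 0 (1.77-fold lower, adjusted p = 0.00788). Cd8a, the alpha chain, was 5.96, 5.76 and 5.74 at day 7, against 5.68, 5.99 and 6.32 in sham lungs and 6.03, 6.58 and 6.32 at day 0. Its highest value of all, 6.97, was in the whole lung at day 56 after pneumonectomy, an array that stands apart in small RNAs as given further on. The difference of Cd8a at day 7 relative to day 0 was -0.49 ± 0.23 (adjusted p = 0.16).

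Genes of receptor-proximal signalling showed small differences. These 8 genes, with Zap70 (the kinase recruited to the zeta chain), Lat (the adaptor it phosphorylates), Themis, Ubash3a, Txk, Skap1, Trat1 and Sit1, were dim, with average levels from 4.05 to 6.91. None of them passed at day 3 relative to day 0, although all 8 were below 0 with a median of -0.25, and 1, Trat1, fell at day 7 (difference -0.27 ± 0.07, adjusted p = 0.0312). Lat was 6.85, 6.85 and 6.56 at day 3 and 6.50, 7.57 and 6.77 at day 7, against 6.78, 6.90 and 6.93 in sham lungs and 7.10, 7.27 and 7.07 at day 0. The day 7 cardiac lobe was the highest of these 12 arrays and the day 7 medial lobe the lowest. That cardiac lobe, in this and other genes, is an array that stands apart in small RNAs as given further on. Skap1, an adaptor that links the receptor to integrins, was 5.13, 5.31 and 5.31 at day 3, against 5.06, 5.39 and 5.44 in sham lungs and 5.33, 5.90 and 5.58 at day 0. Themis, needed for thymocyte selection, was 4.63, 5.13 and 4.61 at day 7, against 4.50, 4.72 and 4.67 in sham lungs and 4.78, 5.11 and 5.04 at day 0, and the day 7 cardiac lobe again stood above the other day 7 arrays. Sit1, an inhibitory adaptor, was 5.01, 4.84 and 4.85 at day 7, against 4.88, 5.08 and 5.39 in sham lungs and 5.29, 5.18 and 5.37 at day 0, with a difference from day 0 of -0.38 ± 0.11 that missed the threshold (adjusted p = 0.0505).

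Among the 7 costimulatory and other surface receptors, Cd2, Cd5, Cd6 and Cd27 fell at day 3, and these and Cd28 fell at day 7, all relative to day 0. Cd2, an adhesion receptor of T and NK cells, was 8.54, 8.73 and 7.72 at day 3 and 8.88, 8.37 and 8.52 at day 7, against 9.02, 9.02 and 8.75 in sham lungs and 9.33, 9.27 and 8.94 at day 0. Each day 3 array lay below the sham and day 0 arrays of its own region, with the whole lung lowest by a wide margin. Cd2 was the single member that fell at day 3 relative to sham (-0.60 ± 0.17, 1.52-fold lower, adjusted p = 0.0449), and relative to day 0 the difference was -0.85 ± 0.17 (adjusted p = 0.00695). The fall relative to sham was kept in 5 of 13 alternatives, with differences from -0.73 to -0.38, and was lost without the day 3 medial lobe, the day 3 whole lung or any of the sham arrays.

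Cd2 stood at 9.10, 9.47 and 8.45 at day 14, 9.29, 9.26 and 8.39 at day 28 and 9.04, 8.98 and 8.40 at day 56, with its lobes close to those of day 0 and sham and each whole lung below both. The mean of these later days was above that of days 3 and 7 by 0.47 (SE 0.11, adjusted p = 0.0154). Cd27, a receptor of the tumour necrosis factor family that marks naive and memory T cells and immature NK cells, was 5.64, 6.17 and 5.72 at day 3 and 5.78, 5.52 and 5.31 at day 7, against 5.95, 5.99 and 5.74 in sham lungs and 6.42, 6.57 and 6.26 at day 0. Each day 7 array lay below the sham and day 0 arrays of its own region. Cd27 fell by 0.88 at day 7 relative to day 0 (adjusted p = 0.00101), differed from sham by -0.36 ± 0.12 (adjusted p = 0.113), and rose by 0.28 on the later days relative to days 3 and 7 (adjusted p = 0.0405). Thy1, a surface protein that stromal cells also carry, was 7.23, 8.02 and 7.41 at day 7, against 6.95, 7.38 and 7.59 in sham lungs and 7.31, 7.74 and 7.63 at day 0. Its groups overlapped, and its highest array was the day 7 cardiac lobe, which stands apart in small RNAs. Thy1 passed in none of the comparisons of conditions. Icos, an inducible costimulator, passed in none either and differed from day 0 by -0.13 ± 0.09 at day 7.

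The homing receptor gene Ccr7 fell and the survival receptor gene Il7r did not pass. Ccr7 guides naive T cells and dendritic cells to lymph nodes, and it was 7.92, 8.08 and 8.30 at day 3 and 7.91, 8.54 and 8.35 at day 7, against 8.33, 8.66 and 8.05 in sham lungs and 8.90, 9.22 and 9.32 at day 0. The sham arrays overlapped with days 3 and 7 and lay below day 0. It fell by 1.05 at day 3 (2.07-fold lower, adjusted p = 0.00339) and by 0.88 at day 7 (adjusted p = 0.013), relative to day 0. At day 28 it was 9.05, 8.60 and 8.57, with the medial lobe above that of day 0, and at day 56 its difference from sham was -0.03 ± 0.19 with a 95% interval of -0.44 to 0.38. Il7r, the interleukin-7 receptor, was 6.83, 7.38 and 7.38 at day 3 and 6.44, 7.20 and 7.70 at day 7, against 6.97, 7.43 and 7.05 in sham lungs and 7.43, 8.21 and 7.84 at day 0. Its spread within a condition was wide, and the difference of -0.72 ± 0.25 at day 7 relative to day 0 did not pass (adjusted p = 0.0775).

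**Figure D3:**
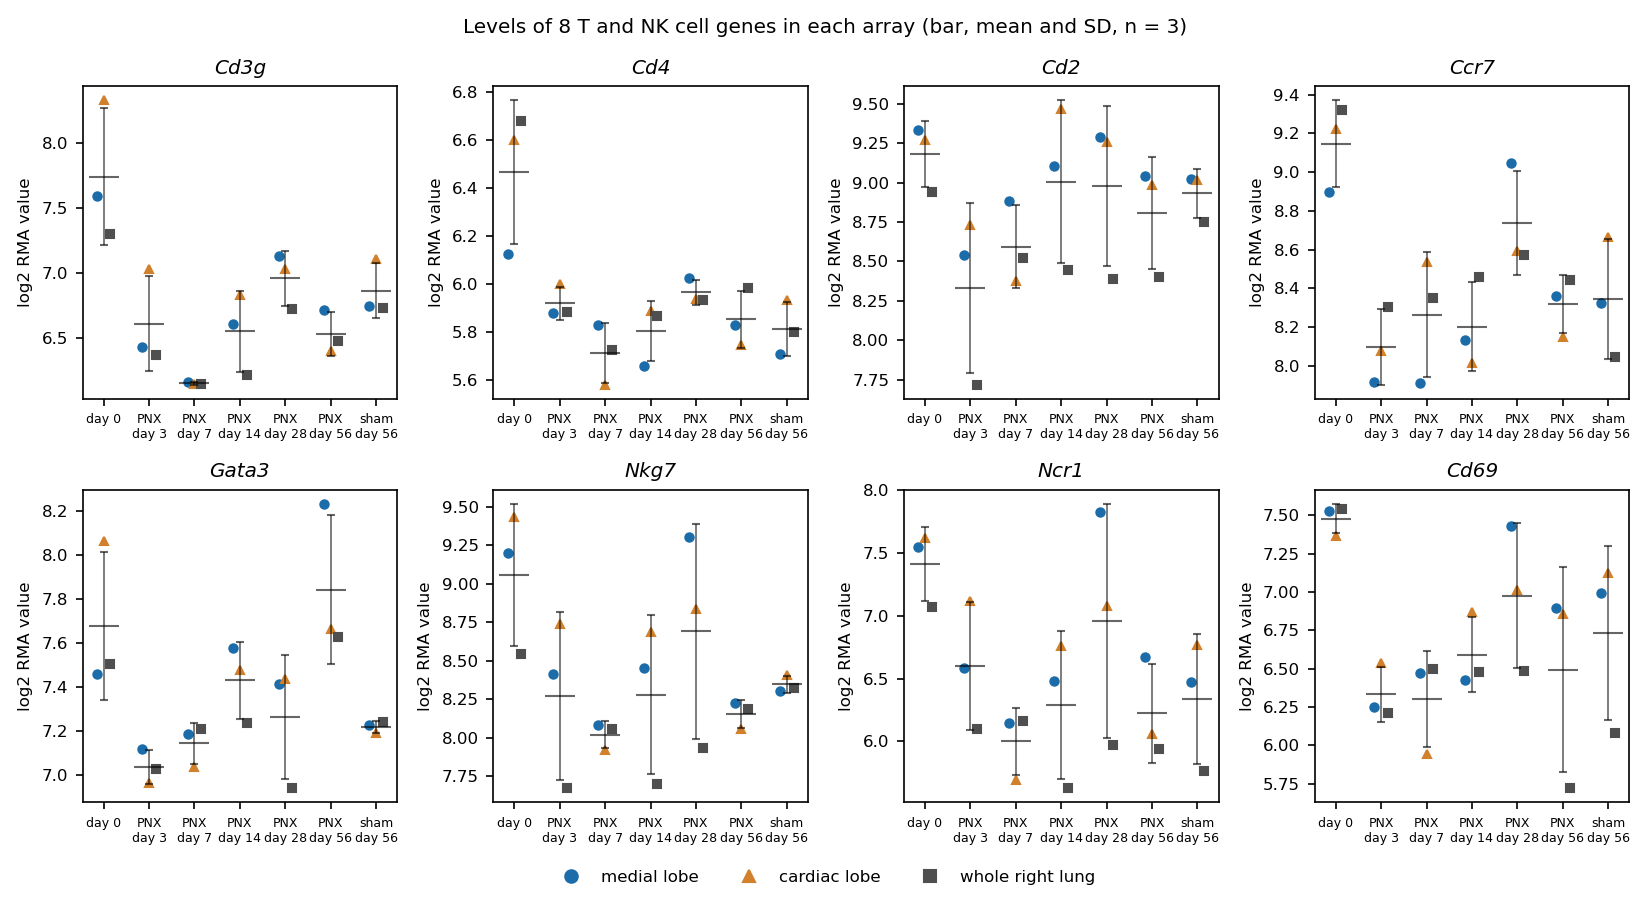
Log2 level of 8 members in each array by condition, with a symbol for each region and a bar for the mean and SD of the 3 regions. Cd3g has its 3 day 7 arrays together at the bottom between 6.14 and 6.16, Gata3 is highest in the day 56 pneumonectomy medial lobe at 8.23, and Nkg7 and Ncr1 have a day 28 medial lobe (9.31 and 7.83) above that of day 0 (9.20 and 7.54).

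The T cell transcription factor genes differed among themselves. Lef1, a factor of naive T cells, was 6.15, 6.29 and 6.11 at day 3 and 5.82, 6.18 and 6.23 at day 7, against 5.92, 6.56 and 6.20 in sham lungs and 6.41, 7.34 and 6.72 at day 0, and the day 0 cardiac lobe was its highest array. It fell at day 7 relative to day 0 (-0.75 ± 0.20, adjusted p = 0.0333). Gata3, which directs helper T cells of type 2 and innate lymphoid cells of type 2, was 7.12, 6.97 and 7.03 at day 3 and 7.19, 7.04 and 7.21 at day 7, against 7.23, 7.19 and 7.24 in sham lungs and 7.46, 8.06 and 7.51 at day 0. The sham arrays lay close to days 3 and 7 and below day 0. Gata3 fell by 0.64 at day 3 relative to day 0 (adjusted p = 0.0245).

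Gata3 was then 7.58, 7.48 and 7.24 at day 14, 7.41, 7.44 and 6.94 at day 28 and 8.23, 7.66 and 7.63 at day 56 after pneumonectomy. The 3 arrays of day 56 all lay above the 3 sham arrays, and the medial lobe was the highest Gata3 value of the series. The later days rose by 0.42 relative to days 3 and 7 (adjusted p = 0.0185), whereas the difference of 0.62 ± 0.16 from sham at day 56 (1.54-fold higher) did not pass (adjusted p = 0.182) and passed in 0 of 13 alternatives (limma, adjusted p between 0.119 and 0.633, unadjusted p = 0.00141). Bcl11b, which keeps T cells committed to their lineage, was 6.18, 6.20 and 6.33 at day 3 and 6.07, 6.23 and 6.09 at day 7, against 5.83, 6.23 and 6.29 in sham lungs and 5.99, 6.19 and 6.35 at day 0. These groups overlapped throughout, and at day 3 Bcl11b was the single member above day 0 (0.06 ± 0.13, adjusted p = 0.853).

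Among the 5 cytotoxic effector genes, Gzma, Gzmb and Ctsw fell at day 3 and these and Nkg7 fell at day 7 relative to day 0, and none passed relative to sham. Gzma, a granzyme stored in killer cell granules, was 8.06, 7.86 and 7.33 at day 3 and 7.84, 7.27 and 7.82 at day 7, against 8.14, 7.85 and 7.78 in sham lungs and 8.61, 8.64 and 8.39 at day 0. The sham arrays overlapped with both days and no array of these overlapped with day 0. It fell by 0.90 at day 7 (1.87-fold lower, adjusted p = 0.0193). Nkg7, a granule membrane protein, was 8.41, 8.74 and 7.67 at day 3 and 8.09, 7.92 and 8.05 at day 7, against 8.31, 8.41 and 8.32 in sham lungs and 9.20, 9.43 and 8.54 at day 0. At day 3 its cardiac lobe overlapped with day 0, and at day 7 no array did. Nkg7 fell by 1.04 at day 7 (adjusted p = 0.0178). Prf1, the pore-forming perforin, was 6.62, 6.26 and 6.59 at day 7, against 6.68, 6.92 and 6.93 in sham lungs and 6.97, 7.77 and 6.81 at day 0, and its difference of -0.69 ± 0.24 from day 0 did not pass (adjusted p = 0.0776). Ctsw, the cathepsin of cytotoxic cells, fell by 0.55 and Gzmb by 0.83 at day 7 (adjusted p = 0.025 and 0.0206). Granzymes and lectin-like NK receptors have close relatives in the mouse, and hybridisation between relatives was not tested.

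All 5 NK and cytotoxic cell receptor genes fell at day 7 relative to day 0, and Klrb1c, Klrk1 and Cd96 fell at day 3. Ncr1 encodes NKp46, an activating receptor largely restricted to NK cells and other innate lymphoid cells. It was 6.58, 7.12 and 6.10 at day 3 and 6.15, 5.70 and 6.16 at day 7, against 6.47, 6.77 and 5.76 in sham lungs and 7.54, 7.62 and 7.07 at day 0. The day 3 cardiac lobe overlapped with day 0, and the whole lung after sham was among the lowest arrays. Ncr1 fell by 1.41 at day 7 relative to day 0 (2.66-fold lower, adjusted p = 0.0101), while sham differed from day 0 by -1.08 ± 0.29 (adjusted p = 0.161) and day 7 from sham by -0.33 ± 0.29 (adjusted p = 0.56).

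One of the 2 promoter windows of Ncr1 in the table is shown, since Ncr1 is an NK cell marker of the list. It lies at chr7:4337465-4337764 on the plus strand of GRCm38.p6, from RefSeq, with its 2 matches of the RUNX core in capitals.
Ncr1: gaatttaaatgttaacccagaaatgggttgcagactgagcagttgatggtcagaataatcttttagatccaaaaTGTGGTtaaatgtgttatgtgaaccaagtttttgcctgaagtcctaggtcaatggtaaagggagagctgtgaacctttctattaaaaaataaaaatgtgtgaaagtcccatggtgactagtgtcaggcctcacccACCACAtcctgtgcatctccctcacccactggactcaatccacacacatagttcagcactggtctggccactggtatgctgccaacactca
The other window of Ncr1 is not printed. The RUNX core was in windows of 13 members. Besides Ncr1 these were Cd96, Gzma, Gzmb, Klrb1c, Klrk1, Nkg7 and Prf1 among the cytotoxic and NK genes. The others were Il7r, Lat, Trat1, Txk and Zap70, and the shares of the role groups were not compared.

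Cd96, an adhesion receptor of T and NK cells, was 5.32, 5.44 and 5.18 at day 3 and 5.01, 5.20 and 5.32 at day 7, against 5.37, 5.34 and 5.29 in sham lungs and 6.03, 6.38 and 5.89 at day 0. All arrays of these later groups lay below every day 0 array. The differences from day 0 were -0.78 ± 0.13 at day 3 (adjusted p = 0.00195), -0.92 ± 0.13 at day 7 (adjusted p = 0.00127) and -0.77 ± 0.13 in sham (adjusted p = 0.0193), and from sham the day 3 arrays differed by -0.02 ± 0.13. Klrd1, the CD94 chain that pairs with NKG2 receptors, was 6.89, 6.45 and 7.31 at day 7, against 7.21, 7.33 and 6.90 in sham lungs and 7.98, 7.63 and 7.62 at day 0. It fell by 0.86 at day 7 (adjusted p = 0.0305), and at day 28 it was 7.91, 7.77 and 8.04, all of them above the sham arrays. Klrb1c (NK1.1, which defines NK cells in C57BL/6 mice) fell by 0.73 and Klrk1 (the activating receptor NKG2D) by 0.40 at day 7 (adjusted p = 0.0111 and 0.033).

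Eomes and Tbx21, the T-box factors of NK cells and effector T cells, passed in none of the comparisons of conditions. Eomes was 5.50, 5.65 and 5.62 at day 3 and 5.50, 5.86 and 5.48 at day 7, against 5.56, 5.72 and 5.64 in sham lungs and 5.60, 6.25 and 5.73 at day 0. Tbx21 was 6.15, 6.41 and 6.08 at day 3 and 6.06, 6.29 and 5.88 at day 7, against 5.78, 6.03 and 6.09 in sham lungs and 6.41, 6.68 and 6.29 at day 0. The sham arrays of Tbx21 lay below day 0, and the other groups overlapped with day 0. At day 7 the genes differed from day 0 by -0.25 ± 0.19 and -0.38 ± 0.17 (adjusted p = 0.38 and 0.147).

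Cd69, an early activation marker that also keeps lymphocytes in tissue, showed one of the larger differences. It was 6.25, 6.53 and 6.21 at day 3 and 6.47, 5.94 and 6.50 at day 7, against 6.99, 7.12 and 6.08 in sham lungs and 7.53, 7.37 and 7.54 at day 0. The day 0 arrays lay within 0.2 of each other and above all other arrays shown, and the whole lung after sham was below its lobes and below day 3. Cd69 fell by 1.15 at day 3 (2.22-fold lower, adjusted p = 0.0155) and by 1.18 at day 7 (adjusted p = 0.0158), while relative to sham the differences were -0.40 ± 0.27 and -0.43 ± 0.27, neither of which passed. Itgae, the integrin chain CD103 of resident T cells and some dendritic cells, was 5.91, 6.31 and 5.90 at day 3 and 6.11, 6.42 and 6.14 at day 7, against 5.83, 6.33 and 6.00 in sham lungs and 6.22, 6.75 and 6.30 at day 0. The cardiac lobe was the highest region of Itgae in each of these conditions. Itgae fell by 0.38 at day 3 (adjusted p = 0.0216).

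In all, 26 of the 41 members (63.4%) passed in at least 1 of 13 comparisons of conditions, against 19.4% of all genes, and 15 passed in none. The 15 were Cd8a, Zap70, Lat, Themis, Ubash3a, Txk, Skap1, Sit1, Icos, Thy1, Il7r, Bcl11b, Prf1, Eomes and Tbx21, which include 7 of the 8 signalling genes and no CD3 or NK receptor gene. Brightness differed between members. At day 7, 7 of the 10 members above the median gene fell relative to day 0, with a median difference of -0.84, and 17 of the 31 dimmer ones, with a median of -0.40. Among all genes on the brighter side 7.33% fell, and among those on the dimmer side 2.60%. In sham relative to day 0, 1 of the 10 brighter and 3 of the 31 dimmer members fell, and at day 7 relative to sham 0 of 10 and 1 of 31 (limma). The difference between bright and dim members was not tested.

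The later days lay between day 0 and the early days or close to sham. At day 28 after pneumonectomy 0 of 41 members passed relative to day 0 (limma), as did 0% of all genes, with 14 members lower at an unadjusted p under 0.05 and a median of -0.24. Relative to sham 0 members passed at day 28, against 0.186% of all genes, with 6 higher at an unadjusted p under 0.05 (Cd3e, Cd6, Ctsw, Ncr1, Klrd1 and Klrk1) and 40 of 41 above 0. Over the list as a whole, the members above sham at day 28 rested on the medial lobe, where all 41 were above sham with a median of 0.41. In the cardiac lobe 22 of 41 were above sham and in the whole lung 23 of 41, with medians of 0.02 and 0.02. The 6 genes named were above sham in all 3 regions, and Klrd1 most so in the whole lung (differences 0.70, 0.43 and 1.14).

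In that day 28 medial lobe Gzma was 9.01 and Ncr1 was 7.83, against 8.14 and 6.47 in the medial lobe of sham and 8.61 and 7.54 in that of day 0. Relative to day 0, 21 of 41 members were lower there, against 39 in the cardiac lobe and 37 in the whole lung. B and plasma cell markers were high in the same array, with a mean of 8.39, against 7.30 in the sham and 7.78 in the day 0 medial lobe.

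At day 56 after pneumonectomy 3 members fell relative to day 0 (Cd3e, Cd3g and Cd96, against 0.0853% of all genes), with a median of -0.41 over the 41. The count was 0 when the cardiac lobe of day 0 or of day 56 or the day 56 whole lung was left out and 1 when the day 0 whole lung was, with 24 to 33 lower at an unadjusted p under 0.05 (limma). Relative to sham of the same day 0 of 41 passed (limma), against 0.336% of all genes, with Txk lower and Gata3 higher at an unadjusted p under 0.05. The median difference was -0.04, and the 95% intervals of single members reached from -0.83 at the lowest to 0.96 at the highest. At day 14 relative to sham 0 members passed (limma), 0 at an unadjusted p under 0.05, against 0.0652% of all genes called.

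Days 3 and 7 together lay below day 0 and sham together for 17 members (41.5%), against 7.72% of all genes, with 8 without the day 0 cardiac lobe and 11 without the sham cardiac lobe or the day 3 whole lung. This contrast averages day 0 with sham and shares its arrays with the comparisons above. Relative to sham alone 1 member fell at day 3 and 1 at day 7, so a call here does not mean a fall below both controls. The mean of days 14, 28 and 56 rose relative to days 3 and 7 for Cd2, Cd27 and Gata3 (7.32% of the members), against 2.69% of all genes, and for 1 member without the day 7 cardiac lobe or the day 3 whole lung.

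The 2 lobes differed in 1 member and the lobes from the whole lung in 8. In the cardiac lobe relative to the medial lobe 1 member rose, Itgae (0.36 ± 0.06, adjusted p = 0.0435), against 0.0552% of all genes. With arrays centred on their median this call was lost (adjusted p = 0.0782). In the mean of the lobes relative to the whole right lung 8 members were higher, Cd2, Cd27, Cd3g, Gzmb, Klrb1c, Klrk1, Ncr1 and Nkg7 (19.5% of the members), against 20.3% of all genes, and 0 were lower (limma, with 4 at an unadjusted p under 0.05). With arrays centred on their median 8 were higher and 5 lower. Ncr1 had the largest of these differences (0.68 ± 0.16, adjusted p = 0.00713). The early response, days 3 and 7 relative to day 0 and sham, did not differ in a called way between the cardiac and medial lobes for any member (0 of 41, limma, with 0 at an unadjusted p under 0.05 and 0% of all genes called), nor between the whole lung and the lobes (0 of 41, with 0 at an unadjusted p under 0.05 and 0% of all genes called). For the cardiac minus the medial lobe 31 of 41 members were below 0, against 54.4% of all genes, with a median of -0.13. For the whole lung minus the lobes 18 were below 0, against 50.4%. Day 0 and sham were taken as replicates there, as were days 3 and 7, so differences within either pair widened the error. The lack of calls thus does not show an equal response. The sign of the difference from day 0 was shared, with 38, 39 and 40 of 41 members lower at day 3 and 39, 37 and 41 at day 7.

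Other genes of these cells, which are not members, were counted in shorter lists, so their counts do not compare directly with those of the members. Among all genes 2.73% fell at day 3 and 4.97% at day 7 relative to day 0. Relative to sham 3.21% fell at day 3 and 2.15% at day 7. Of 13 further genes of T cell receptor signalling 2 fell at day 3 and 6 at day 7 relative to day 0, and 1 at day 7 relative to sham. At day 3 relative to sham Lcp2, an adaptor of the same pathway, rose, and 4 of the 13 were below 0, with a median of 0.31. Grap2, another adaptor of T cells, differed by -0.87 ± 0.12 at day 7 from day 0 (adjusted p = 0.00117). Of 20 further cytotoxic and NK genes 4 fell and Cd244a rose at day 3, and 7 fell at day 7, relative to day 0. Il12rb2, a chain of the interleukin-12 receptor, was the one of these that fell at day 7 relative to sham (-0.64 ± 0.12, adjusted p = 0.00742). Of 8 Gimap genes, small GTPases of lymphocytes, 2 fell at day 3 and 4 at day 7 relative to day 0, led by Gimap3 (-1.25 ± 0.17 at day 7, adjusted p = 0.00101), and 1 at day 7 relative to sham. Of 11 genes of lymphocyte migration 1 fell at day 3, Cxcr6, a chemokine receptor of resident T cells (-0.80 ± 0.12 relative to day 0, adjusted p = 0.000832). Of 10 homing chemokine and survival cytokine genes 2 fell and Cxcl12 rose at day 3, and 3 fell at day 7 relative to day 0, with Ccl5, a chemokine that T and NK cells make, at -1.07 ± 0.21 (adjusted p = 0.00838). Il15, the cytokine that keeps NK and memory T cells alive, fell at day 7 relative to sham (-0.40 ± 0.10, adjusted p = 0.0286). Of 9 genes of regulatory and exhausted T cells 1 fell at day 3 and 0 passed at day 7 relative to day 0 (limma).

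Markers of other cells moved with the members in part. Of 11 B and plasma cell markers 8 fell at days 3 and 7 relative to day 0, 4 at day 7 relative to sham and 0 in sham relative to day 0 (limma). Ms4a1, the CD20 antigen of B cells, differed by -1.92 ± 0.23 at day 7 from day 0 (adjusted p = 0.000499), by -0.97 ± 0.23 at day 7 from sham (adjusted p = 0.0242) and by -0.95 ± 0.23 in sham from day 0 (adjusted p = 0.0981). Their mean level was 7.02, 7.67 and 7.12 at day 7, against 7.30, 7.63 and 7.78 in sham lungs and 7.78, 8.14 and 8.34 at day 0. Thymocyte markers, 6 genes with Rag1 and Ptcra among them, stayed between 4.86 and 5.42 as a mean in all 21 arrays and none passed at days 3 or 7 relative to day 0.

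Of 9 monocyte and interstitial macrophage markers 5 rose at day 3 relative to day 0 and 7 relative to sham, and 4 of 7 fibroblast markers rose at day 3 and 3 at day 7 relative to day 0, with a mean over the list of 9.76 at day 3 and 9.67 at day 7, against 8.90 in sham lungs and 8.72 at day 0. All 5 proliferation genes rose at days 3 and 7 relative to day 0 and to sham. Monocyte, fibroblast and proliferation genes thus moved with the early days, and their part in the levels of the members was not tested. Of 7 alveolar macrophage markers Itgax, Krt79 and Siglecf fell at day 3, and Fabp1, Krt79 and Siglecf at day 7, relative to day 0. Of 6 dendritic cell markers Cd209a and Clec9a fell at day 7 relative to day 0. None of 8 neutrophil markers passed relative to day 0 (limma), with medians of 0.96 at day 3, -0.20 at day 7 and 0.76 in sham, where all 8 were above 0. The part of these cells was not tested either.

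Day 0 and sham also differed in other ways. Of 12 genes of the circadian clock 8 fell and 1 rose in sham relative to day 0, and their mean was 8.35, 8.30 and 7.84 in sham, against 9.13, 9.14 and 9.01 at day 0. After pneumonectomy the clock mean was 8.63, 8.45 and 8.47 at day 3 and 8.60, 8.30 and 8.71 at day 7. It was 8.16, 8.14 and 8.13 at day 14 and 8.91, 8.79 and 8.73 at day 28. At day 56 after pneumonectomy, where the members stood near sham, it was 9.27, 9.11 and 8.61. Whether the members and the clock genes moved together was not tested. The mean of 59 small RNA genes was lowest at day 0 among the medial lobes (6.90) and among the whole lungs (7.77), and highest in the whole lung at day 56 after pneumonectomy (9.84) and, among the lobes, in the day 7 cardiac lobe (8.15). These last 2 arrays also had the narrowest spread of values in the whole lungs and in the lobes, with interquartile ranges of 3.13 and 3.34. Without them 25 members fell at day 3, 14 at day 7, 16 at day 14 and 13 in sham, relative to day 0, and 0 at day 7 relative to sham (limma, with 3 lower at an unadjusted p under 0.05). The shares of all genes without these arrays are not given, so whether such changes are particular to the members cannot be told. The labels give 1 hybridisation date for all arrays, and neither the time of collection nor the age of the mice, so day 0 differs from the other conditions in surgery and in anything else of its collection, which cannot be told apart.

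**Figure D4:**
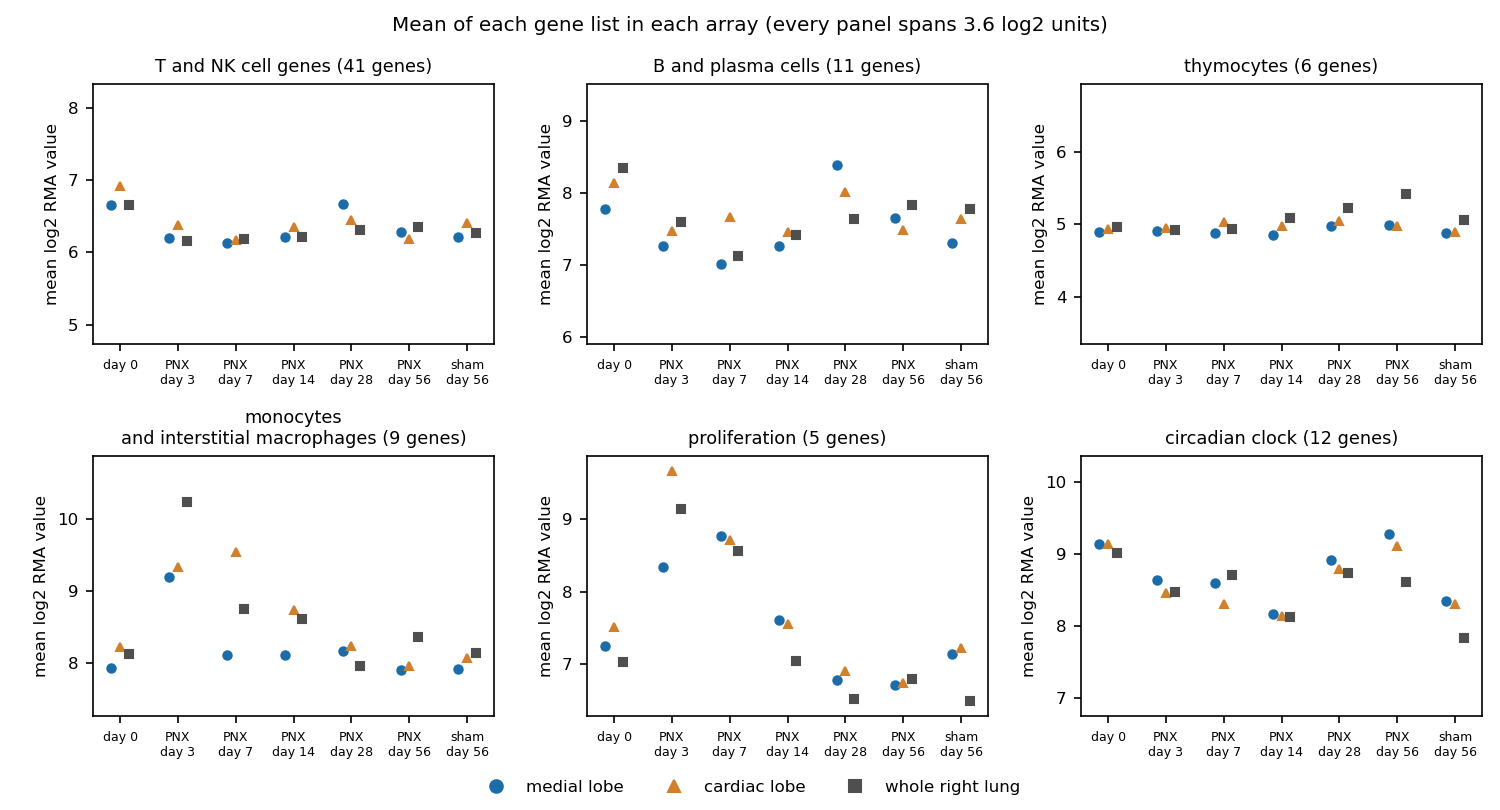
Mean log2 level of 6 gene lists in each array by condition, with a symbol for each region and the same span of the axis in each panel. The T and NK cell genes are highest at day 0 with the day 28 medial lobe beside them. B and plasma cell markers are also lower at days 3 and 7 than at day 0, with a wider range, but are highest in the day 28 medial lobe at 8.39. Thymocyte markers stay near 5, and clock genes are low at day 14 and in sham and high at day 0 and at day 56 after pneumonectomy.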

How the data were processed

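The deposited table holds log2 intensities of 35556 probe sets in 21 arrays, made by the authors with RMA (background correction, quantile normalization and probe summary), per the submitters' processing notes, which name RMA and no version. RMA makes the distributions of the arrays alike, so a level is relative to the whole array, and precision is limited by the 3 arrays of a condition. The labels describe amplification from the 3′ end, and of the probe sets 21789 were annotated with 1 gene symbol, 1621 with more and 12146 without; only the first kind was used, and the brightest probe set stood for each of 19938 genes.

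A model of condition and region on the 21 arrays was fitted in limma 3.58.1 (R 4.3.3, 12 residual degrees of freedom) with empirical Bayes moderation, and Benjamini-Hochberg adjustment ran over 19938 genes for each comparison. The fit was tested on simulated data. The number of a replicate in a group stands for its region. The region term thus groups the arrays by the region in their labels, which state no pairing of animals. Region by response was tested on the means of phases.

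The members and gene lists were chosen with earlier results of these data known. Array values are printed for the members with the largest differences in each role group at day 3 from day 0 and at day 7 from sham, for those that passed against sham or between late and early days, and for the brightest that passed nowhere or any above day 0. Alternatives dropped the region term, the whole lungs, dim genes or other conditions, centred arrays, averaged probe sets, or left out arrays. No 2 arrays were identical.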

Additional observations from a re-analysis of the deposited data

How the results depend on the processing

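None of the counts or of the members called changed direction. Some medians over the members did change sign, with -0.11 to 0.01 over the alternatives for day 3 against sham (-0.04 as fitted) and -0.10 to 0.07 for day 56 (-0.04 as fitted). Day 14 against sham ran from -0.08 to 0.02 (-0.04 as fitted), and the lobes against the whole lung from -0.04 to 0.05 (0.02 as fitted). The early response ran from -0.13 to 0.01 for the cardiac against the medial lobe (-0.13 as fitted). For the whole lung against the lobes it ran from -0.005 to 0.10 (0.03 as fitted). Among single members 747 values stayed on their side of the threshold and 424 lost it. Of the 747, 91 came from averaging probe sets. That alternative leaves the values of the members unchanged, since each has 1 probe set, so these 91 do not count as stability. Counts of members in the alternatives, here and above, come without shares of all genes, which were given for the fit of 21 arrays only. Counts of members below day 0 are given in the order day 3, 7, 14 and 56 and sham, with 19, 24, 10, 3 and 4 as fitted. With no region term and thus no replicate block they were 6, 10, 5, 0 and 2, and the counts below sham were 0 at day 3 and 0 at day 7. In the lobes alone they were 5, 18, 0, 0 and 0, and 0 below sham at both days. With genes dimmer than the median gene left out, 10 members were tested and 6, 8, 3, 1 and 1 passed, with 0 at day 7 below sham. With only the arrays compared they were 18, 0, 11, 0 and 10, and 0 below sham at both days. Without the 2 arrays that stand apart, an alternative chosen after seeing the data, they were 25, 14, 16, 2 and 13, and 0 at day 7 below sham. Leaving out 1 array at a time gave 7 to 12, 10 to 27, 2 to 6, 0 to 3 and 0 to 2, and 0 to 1 below sham at each of days 3 and 7. Where limma called 0 members in these alternatives, 19 to 33 were below day 0, or 0 to 8 below sham, at an unadjusted p under 0.05. For days 3 and 7 against day 0 and sham, with 17 members, leaving out 1 array gave 8 to 18, with 9 without the region term and 8 without dim genes. For later against early days, with 3 members, it gave 1 to 4, with 1 without the region term. The F test called 6 members without the region term and 6 without dim genes, against 15 as fitted. Itgae in the cardiac against the medial lobe was lost with arrays centred on their median (0 members), and it is itself a dim gene, without which 0 members passed. In the lobes against the whole lung 2 members were higher without dim genes, and centring left 8 higher and 5 lower. Fewer genes, arrays or degrees of freedom are part of several of these alternatives, and the cause was not tested for the others. Signal over background limits the 31 dimmer members, for which no detection call was given.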
